A study of Arabidopsis thaliana with 9 samples.

Results

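The 54 nuclear genes described here encode subunits of the mitochondrial respiratory chain and of the ATP synthase in Arabidopsis thaliana, and they were taken by locus identifier from the 33557 rows of the expression tables. They comprised 16 genes of complex I, 7 of complex II, 11 of complex III, 2 of cytochrome c, 9 of complex IV and 9 of complex V (the ATP synthase). The transcriptomes came from whole seedlings of accession Col-0, aged 14 days, in 3 groups of 3 biological replicates. The control group was wild type that stood for 12 h in liquid medium without drug. The doxycycline group was wild type in the same medium with 25 µg/ml of doxycycline, an antibiotic that blocks translation on bacterial-type ribosomes, such as those of mitochondria and plastids. The mrpl1-1 group carried a mutation in a gene for a protein of the mitochondrial ribosome and received the drug-free medium. All 9 libraries were therefore flooded with liquid for 12 h in the light. The mrpl1-1 group was 1 mutant line, and the labels do not describe the allele further.

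The respiratory chain passes electrons from NADH (complex I) and succinate (complex II) through ubiquinone, complex III and cytochrome c to oxygen (complex IV), and complex V uses the resulting proton gradient to make ATP. Complexes I, III, IV and V are built from subunits of mixed origin: a few are encoded and translated inside the mitochondrion, while most are encoded in the nucleus and imported. Complex II of Arabidopsis is encoded in the nucleus alone. The 54 genes therefore show the nuclear share of these complexes at the RNA level in seedlings whose mitochondrial translation was targeted by a drug or by a mutation.

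Values are FPKM, fragments normalised to transcript length and to a scale factor of the library. All 9 libraries are given on the scale of the table that held the doxycycline group. The scale was not each library's own mapped total alone, because the wild-type libraries differed by a factor of 0.94057 to 0.94147 between tables. Over all genes tested, the median deviation from the wild-type mean was 0.00 to 0.01 (log2) in every library. The sums over all rows ran from 730782 to 1026051 FPKM. Estimated depth was between 3.03 and 8.02 M reads (M for 10 to the power of 6) per library, and the median gene of the 54 was covered by an estimated 372 to 1055 reads. The transcript of the mutated gene, MRPL1, measured 20.8, 12.8 and 19.8 FPKM in the libraries labelled mrpl1-1 and 20.7, 19.1 and 26.7 FPKM in wild type (limma, log2 fold change -0.31, SE 0.23, adjusted p = 0.931). Its level therefore gave no check of the mutant label. Several libraries differed from the rest of their group. In mrpl1-1 replicate 2 the FPKM column summed to 965086 in its own table, against 760045 and 694478 in the other mutant libraries. The transcripts of chlorophyll-binding and Rubisco genes were also highest there among the 9 libraries for 4 of the 5 leaf markers examined, whose summed level was 38800 FPKM in that library, 30700 in mrpl1-1 replicate 1 and 16300 to 18900 in the others. Wild-type replicate 3, the library of lowest depth, was the highest of its group for 27 and the lowest for 24 of the 54 genes. Mutant fold changes against wild type described below are given with and without mrpl1-1 replicate 2.

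The 250 nt before each gene's annotated start (RefSeq sequence of TAIR10.1) were searched on both strands for site II, the letters TGGGCC or TGGGCT, an element described for plant genes of ribosomes and of respiration. It occurred in 27 of the 54 windows (50%), against 19.2% of the windows of 27443 nuclear protein-coding genes. At least 2 copies occurred in 38.9% of the 54 and in 12% of all. By complex, site II was found before 8 of 16 genes of complex I, 1 of 7 of complex II, 8 of 11 of complex III, both cytochrome c genes, 4 of 9 of complex IV and 4 of 9 of complex V. The telo box (AAACCCTA) occurred in 3.7% of the 54 and 4.49% of all windows. A single form of the mitochondrial dysfunction motif, known from genes induced by mitochondrial stress, was searched: CTTG, any 5 bases, then CAAG. These letters occurred in none of the 54 and in 0.74% of all windows. Other forms of the motif, such as an ending in CACG, were not searched, so their absence is not shown. The next sequences show the window of cytochrome c gene CYTC-1, of COX6a, a small membrane subunit of complex IV, and of both genes of a pair that differed most in level, QCR7 (a small subunit of complex III) and SDH1 (the flavoprotein of complex II). They run 5′ to 3′ towards the gene, with site II letters of either strand in capitals.
CYTC-1 (chr1:8079037-8079286, plus strand): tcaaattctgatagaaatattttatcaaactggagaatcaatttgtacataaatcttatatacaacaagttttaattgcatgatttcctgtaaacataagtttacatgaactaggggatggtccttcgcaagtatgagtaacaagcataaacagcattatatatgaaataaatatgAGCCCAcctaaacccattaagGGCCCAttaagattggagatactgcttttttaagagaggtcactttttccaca
COX6a (chr4:17788835-17789084, minus strand): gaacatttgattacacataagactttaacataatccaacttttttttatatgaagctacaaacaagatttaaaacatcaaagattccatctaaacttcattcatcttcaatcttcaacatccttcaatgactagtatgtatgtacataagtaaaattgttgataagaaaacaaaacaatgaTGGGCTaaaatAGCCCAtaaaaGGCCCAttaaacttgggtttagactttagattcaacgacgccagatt
QCR7-1 (chr4:15671250-15671499, minus strand): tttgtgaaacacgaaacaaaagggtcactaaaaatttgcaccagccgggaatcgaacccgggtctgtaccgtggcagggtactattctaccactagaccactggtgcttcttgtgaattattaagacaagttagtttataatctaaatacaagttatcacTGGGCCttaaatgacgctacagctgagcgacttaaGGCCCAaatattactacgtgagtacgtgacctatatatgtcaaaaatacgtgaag
QCR7-2 (chr5:8856667-8856916, plus strand): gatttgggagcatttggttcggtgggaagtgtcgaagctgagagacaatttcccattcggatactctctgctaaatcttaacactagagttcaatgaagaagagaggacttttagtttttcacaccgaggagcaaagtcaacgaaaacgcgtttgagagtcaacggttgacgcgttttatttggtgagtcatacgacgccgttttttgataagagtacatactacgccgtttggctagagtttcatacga
SDH1-1 (chr5:26653357-26653606, plus strand): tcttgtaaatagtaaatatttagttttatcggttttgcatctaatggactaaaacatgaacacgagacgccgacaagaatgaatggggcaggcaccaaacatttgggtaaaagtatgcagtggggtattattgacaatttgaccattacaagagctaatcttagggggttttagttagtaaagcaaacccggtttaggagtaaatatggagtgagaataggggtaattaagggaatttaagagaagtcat
SDH1-2 (chr2:8000826-8001075, minus strand): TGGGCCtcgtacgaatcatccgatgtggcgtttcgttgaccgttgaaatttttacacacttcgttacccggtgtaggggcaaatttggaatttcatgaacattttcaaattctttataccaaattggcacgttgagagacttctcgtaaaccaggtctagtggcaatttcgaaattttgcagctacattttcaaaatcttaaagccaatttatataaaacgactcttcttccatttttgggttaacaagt
In CYTC-1 the copies of site II began 74 and 53 nt before the gene's start, and in COX6a 69, 58 and 47 nt before it. QCR7-1, the abundant copy of its pair, held site II 90 and 55 nt before its start, and QCR7-2 held none. In the SDH1 pair the order was the other way round, since the abundant SDH1-1 held none and the scarce SDH1-2 held 1 copy at the far end of its window. Over all 54 genes, the median wild-type level was 115 FPKM for the 27 with site II and 89.7 FPKM for the 27 without it. The levels ranged from 1.42 to 310 FPKM with it and from 2.57 to 428 FPKM without it, and the median log2 fold change with doxycycline was -0.09 in both sets.

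In wild-type seedlings these genes were among the abundant transcripts. A wild-type mean of at least 100 FPKM was reached by 27 of the 54, against 6.92% of the 19073 genes tested with doxycycline. The median wild-type mean was 210 FPKM for complex V, 108 for cytochrome c, 98.4 for complex III, 92.8 for complex I, 72.9 for complex IV and 30.6 for complex II. ATP15 (AT1G51650), the epsilon subunit of the central stalk of ATP synthase, was highest, at 348, 356 and 579 FPKM in wild type. Every gene of complex V exceeded 100 FPKM, while complex II ranged from SDH1-2 at 1.42 ± 0.319 FPKM to SDH5, a plant-specific subunit, at 143 ± 12.3 FPKM (mean ± SD, n = 3). All but SDH1-2 and QCR7-2 reached a wild-type mean of 10 FPKM or more.

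**Figure D1:**
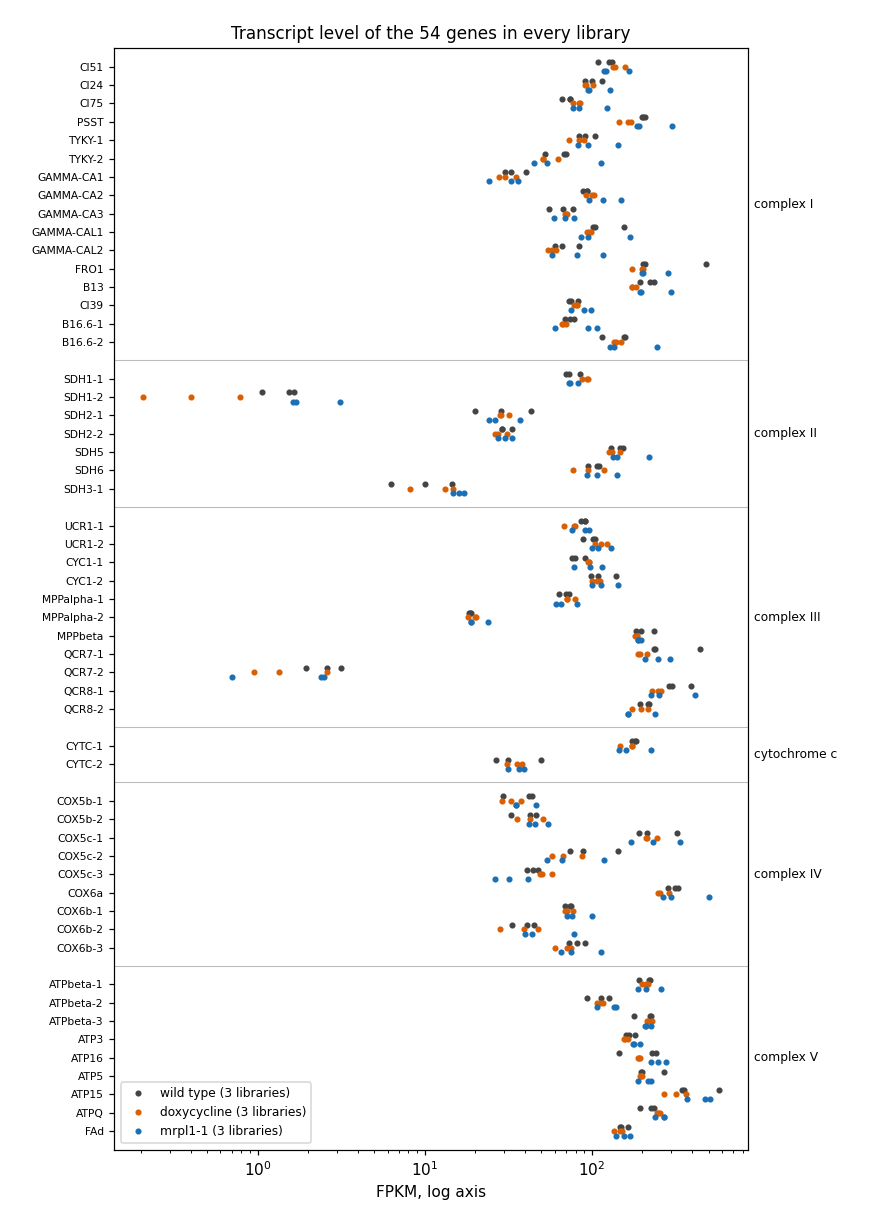
FPKM on a log axis for each of the 54 genes (rows, by complex) in the 3 wild-type, 3 doxycycline and 3 mrpl1-1 libraries, 1 point per library. For most genes the 9 points lie close together; SDH1-2 (0.207 to 0.781 FPKM with doxycycline and 1.06 to 1.66 in wild type) and QCR7-2 are the low genes, and the highest mrpl1-1 point of many rows is replicate 2.

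No gene of the set passed the test with doxycycline: 0 of the 53 tested were called at an adjusted p under 0.05 (limma on log2(FPKM + 1), Benjamini-Hochberg over 19073 genes), against 35 genes, 0.184%, of all tested. The number over all genes was 91 without wild-type replicate 3, 126 with array weights and 7 with the replicate number as a block, ranged from 9 to 91 with each library left out, and the 54 genes contributed none to any of these counts. The smallest adjusted p was 0.446. The median log2 fold change of the 53 was -0.09, with 19 above 0 and 34 below, against a median of 0.00 and 50.4% above 0 over all genes. The range was -0.55 to 0.28. For 49 of the 53 the 95% interval lay within a 2-fold change in either direction, and for 41 within a 1.5-fold change (over all genes 85.5% and 50.3%, and over the 10171 genes averaging 10 FPKM or more 92.7% and 66.8%). A change of 2-fold or more was thus outside the interval of nearly every gene in the set.

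An unadjusted p under 0.05 was found for 5 of the 53, 9.43%, close to the 8.49% of all genes, with 1 gene higher (1.89%, against 3.84% of all genes) and 4 lower (7.55%, against 4.65%). That number moved with single libraries: it was 10 without wild-type replicate 3, 3 without doxycycline replicate 1, and 1 without doxycycline replicate 2 or 3. The share over all genes moved as well, to 11.7%, 5.91%, 5.43% and 5.62% in the same order. Quantile normalization gave 7 genes, beside 8.54% of all genes, and turned the split to 6 higher and 1 lower. The ranges of the groups were separate for 12 of the 53, 22.6%, against 16% of all genes, with 6 higher and 6 lower (11.3% each, against 8.51% and 7.48%). By complex the medians were -0.13 for complex I, -0.03 for complex II, -0.11 for complex III, -0.06 for cytochrome c, -0.09 for complex IV and -0.07 for complex V. The summed level of the 54 genes was 6900 ± 564 FPKM in wild type and 6210 ± 168 FPKM with doxycycline (mean ± SD, n = 3 each), and its ranges, 6480 to 7540 and 6060 to 6400, did not overlap. Nor did the sums over all rows, which were 763439 to 803832 FPKM in wild type and 730782 to 750935 FPKM with doxycycline. As a share of that sum the genes made up 0.848%, 0.868% and 0.938% in wild type and 0.852%, 0.83% and 0.844% with doxycycline, and these shares overlapped.

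In mrpl1-1 seedlings 0 of the 54 genes were called against wild type, where 7 of 18994 genes, 0.0369%, were called in all (5 to 11 with each library left out), and the smallest adjusted p was 0.931. The median log2 fold change was 0.05, with 39 of 54 above 0 (49.9% of all genes). This lean rested on mrpl1-1 replicate 2, which was the highest of its group for 43 of the 54 genes. Without that library the median was -0.05 and 22 of 54 lay above 0. The median gene stood 0.33 (log2) above its wild-type mean in replicate 2 and 0.03 and 0.07 below it in replicates 1 and 3. The 54 genes summed to 8620 FPKM in replicate 2, against 6550 and 6290 in replicates 1 and 3, which was 0.84%, 0.81% and 0.852% of all FPKM in the respective libraries.

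Only SDH3-1, a membrane anchor of complex II, had an unadjusted p under 0.05 in mrpl1-1, 1.85% of the 54 against 4.46% of all genes (2.83% for genes higher in the mutant). For 4 of the 54 mutant and wild type had separate ranges, 7.41%, against 10.1% of all genes, and all 4 were higher in mrpl1-1, where the background is 5.09%. The 95% interval lay within a 2-fold change for 49 of the 54 and within a 1.5-fold change for 22 (77.2% and 24.7% of all genes, and 85.9% and 36.3% of those with at least 10 FPKM). The mutant comparison was therefore less precise than the drug comparison. By complex the medians were 0.13 for complex I, 0.11 for complex II, -0.03 for complex III, 0.00 for cytochrome c, 0.03 for complex IV and 0.11 for complex V. Without mrpl1-1 replicate 2 they were -0.08, -0.05, -0.09, -0.13, -0.14 and 0.01 in the same order. Both comparisons used the same wild-type libraries.

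**Figure D2:**
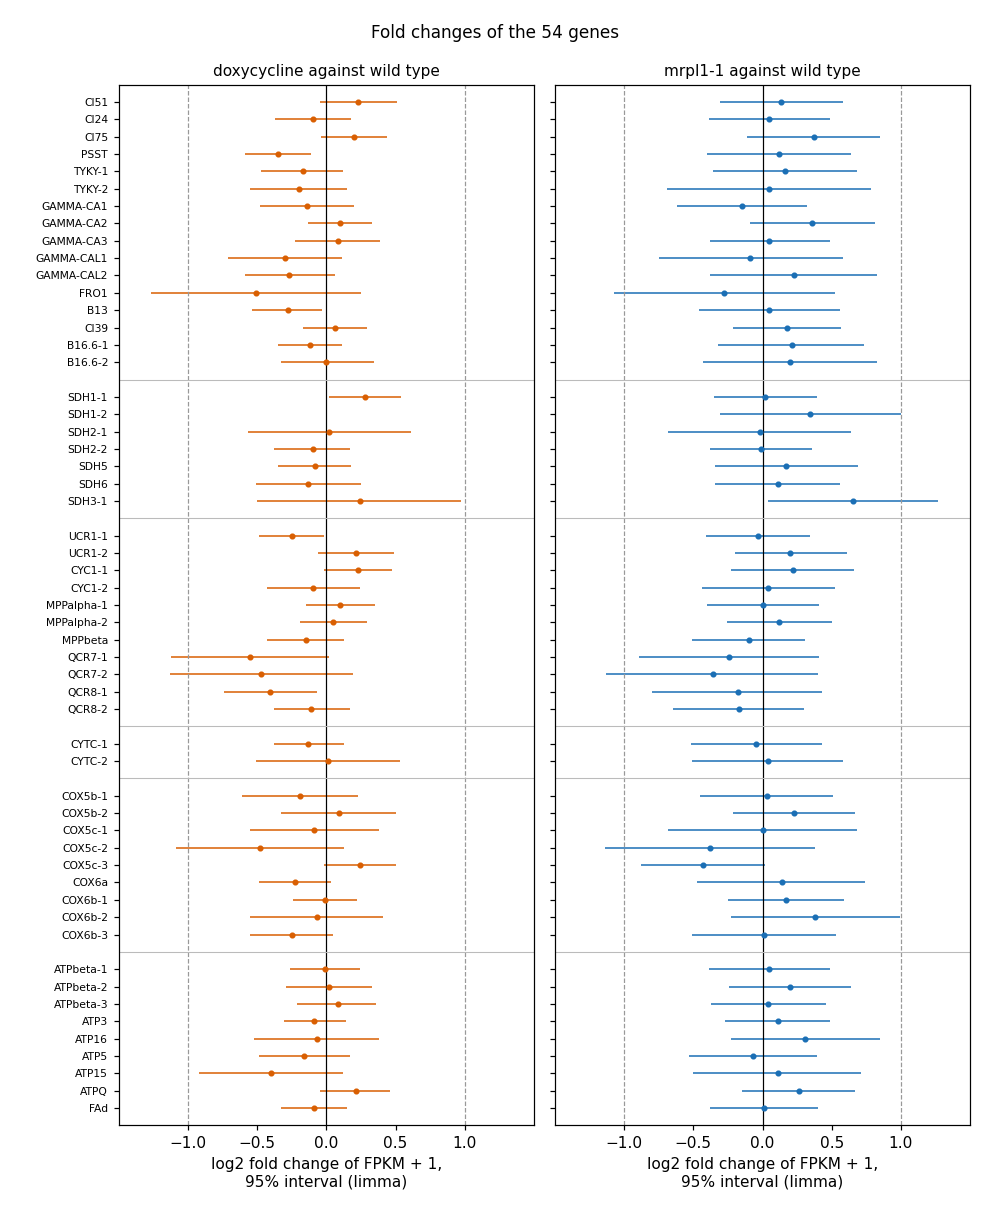
Log2 fold change of FPKM + 1 with its 95% interval (limma) for each gene, doxycycline against wild type on the left and mrpl1-1 against wild type on the right; dashed lines mark a 2-fold change, and SDH1-2 has no point on the left because its mean was below 1 FPKM. Most intervals cross 0 and lie between the dashed lines (49 of 53 on the left, 49 of 54 on the right), and the intervals are wider on the right.

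Among the 16 genes of complex I, the NADH dehydrogenase, PSST (AT5G11770) showed the smallest p with doxycycline. PSST is the iron-sulfur subunit beside the ubiquinone site. It measured 203, 208 and 201 FPKM in wild type, 172, 164 and 146 with doxycycline, and 193, 304 and 186 in mrpl1-1. All doxycycline libraries lay below all others. Its log2 fold change with doxycycline was -0.35 (SE 0.10, 95% interval -0.59 to -0.11; limma, adjusted p = 0.446). It had an unadjusted p under 0.05 in all 16 versions of this fit, which changed 1 processing choice or left out 1 library at a time, with log2 fold changes from -0.40 to -0.25, and the adjusted p ranged from 0.196 to 0.883. B13 (AT5G52840), an accessory subunit, was at 194, 224 and 236 FPKM in wild type and 175, 185 and 175 with doxycycline, without overlap, for a log2 fold change of -0.28 (SE 0.11; limma, adjusted p = 0.563).

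At the NADH end of the complex, the subunits with the highest fold changes were CI51 and CI75. CI51 (AT5G08530) is the flavoprotein that binds NADH, and it measured 132, 126 and 109 FPKM in wild type and 159, 134 and 138 with doxycycline. CI75 (AT5G37510), the large iron-sulfur subunit next to it, measured 74.5, 74.4 and 66.1 in wild type and 85.1, 77.7 and 84.2 with doxycycline. In both genes the lowest doxycycline library lay just above the highest wild-type library, and the log2 fold changes of 0.23 (SE 0.12) and 0.20 (SE 0.10) missed the threshold (limma, adjusted p = 0.648 and 0.644). Without wild-type replicate 3, the lowest library of both, they were 0.15 and 0.14. CI24, another subunit of that end, and the iron-sulfur subunits TYKY-1 and TYKY-2 overlapped between groups, with log2 fold changes of -0.10, -0.17 and -0.20.

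FRO1 (AT5G67590), an accessory subunit, had the highest wild-type mean of complex I only because of wild-type replicate 3. It measured 209, 202 and 486 FPKM in wild type, 204, 173 and 201 with doxycycline and 284, 203 and 199 in mrpl1-1. The groups overlapped, and wild-type replicate 3 was the one high library. The log2 fold change with doxycycline was -0.51 with an SE of 0.32, and -0.10 without that library. The gamma carbonic anhydrase subunits form a matrix-facing domain that plant complex I has and the mammalian enzyme lacks. GAMMA-CA2 (AT1G47260), the main one of its family at 94.3, 94.2 and 88.5 FPKM in wild type, measured 92.1, 103 and 101 with doxycycline and 116, 150 and 96.7 in mrpl1-1. All mutant libraries lay above wild type, for a log2 fold change of 0.36 (SE 0.20; limma, adjusted p = 0.931), or 0.19 (SE 0.15) without mrpl1-1 replicate 2. CI75 in mrpl1-1, at 83.6, 123 and 77.3 FPKM, also lay above wild type throughout, for a log2 fold change of 0.37 (SE 0.21; limma, adjusted p = 0.931), or 0.16 (SE 0.15) without that library. The remaining members of complex I, GAMMA-CA1, GAMMA-CA3, GAMMA-CAL1, GAMMA-CAL2, CI39 and the B16.6 pair, had log2 fold changes from -0.30 to 0.08 with doxycycline and from -0.15 to 0.23 in mrpl1-1 (-0.38 to 0.09 without replicate 2). Of these, GAMMA-CAL1 alone did not overlap wild type with doxycycline, at 95.7, 94.0 and 99.5 FPKM against 104, 102 and 157, and its log2 fold change of -0.30 was -0.10 without wild-type replicate 3.

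In complex II, succinate dehydrogenase, the flavoprotein genes are described first. SDH1-1 (AT5G66760) measured 72.6, 70.5 and 84.9 FPKM in wild type, 94.1, 87.1 and 95.4 with doxycycline, and 83.3, 73.6 and 73.9 in mrpl1-1. All doxycycline libraries lay above all libraries of the other groups, and the log2 fold change against wild type was 0.28 (SE 0.11, 95% interval 0.02 to 0.54; limma, adjusted p = 0.563). Its direction was the same in all 16 versions of the fit.

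SDH1-2 (AT2G18450), the scarce second gene for the flavoprotein, had a mean below 1 FPKM in that comparison and was left out of it. It measured 1.66, 1.55 and 1.06 FPKM in wild type, 0.399, 0.207 and 0.781 with doxycycline, and 3.12, 1.62 and 1.70 in mrpl1-1. All doxycycline libraries were lowest, on an estimated 2.9 to 8.6 reads each against 6.7 to 28 in wild type. Fitted without the filter on low values, its log2 fold change was -0.74 (SE 0.19; limma, adjusted p = 0.399 over 23736 genes). The fold changes of the pair had opposite signs with doxycycline, and SDH1-2 made up 2.23%, 2.16% and 1.23% of the summed FPKM in wild type and 0.422%, 0.237% and 0.812% with doxycycline.

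SDH3-1 (AT5G09600), the membrane anchor, measured 9.99, 14.6 and 6.30 FPKM in wild type, 8.12, 14.7 and 13.3 with doxycycline, and 17.2, 16.1 and 14.8 in mrpl1-1. The mutant libraries were all higher than the others, with the lowest mutant value just above the highest wild-type and doxycycline values. Its log2 fold change in mrpl1-1 was 0.65 (SE 0.27, 95% interval 0.04 to 1.27; limma, adjusted p = 0.931), and it was 0.38 (SE 0.21) without wild-type replicate 3, the lowest library, and 0.65 (SE 0.32) without mrpl1-1 replicate 2. SDH3-2, a second gene for this subunit outside the set, measured 8.9, 13.6 and 2.95 FPKM in wild type. In mrpl1-1 SDH3-2 measured 7.7, 19.9 and 11.1 FPKM, overlapping wild type. Whether reads were divided wrongly between SDH3-1 and SDH3-2 was not tested. The iron-sulfur subunit genes SDH2-1 and SDH2-2 had log2 fold changes between -0.10 and 0.02 in both comparisons with wild type, and of -0.21 and -0.08 in mrpl1-1 without replicate 2. SDH2-1 varied within wild type from 19.9 to 43.2 FPKM. SDH5 and SDH6, plant-specific subunits, overlapped between all groups.

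In complex III, the cytochrome bc1 complex, which in plants also carries the peptidase that removes mitochondrial import signals, the QCR subunits are small proteins of the complex. QCR8-1 (AT3G10860) measured 303, 289 and 393 FPKM in wild type, 258, 229 and 250 with doxycycline, and 227, 412 and 251 in mrpl1-1. Doxycycline and wild type did not overlap, and the log2 fold change was -0.41 (SE 0.14, 95% interval -0.74 to -0.07; limma, adjusted p = 0.511), or -0.27 (SE 0.09) without wild-type replicate 3. QCR7-1 (AT4G32470) measured 239, 236 and 443 FPKM in wild type, 214, 190 and 194 with doxycycline, and 208, 295 and 248 in mrpl1-1. Its log2 fold change with doxycycline was -0.55 (SE 0.24), the lowest of the 53 genes. Without wild-type replicate 3, its highest library, it was -0.25 (SE 0.09). QCR8-2 overlapped between groups, at -0.11 with doxycycline.

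UCR1-1 (AT5G13430), a gene of the Rieske iron-sulfur protein, measured 91.0, 91.3 and 86.7 FPKM in wild type, 68.1, 77.9 and 79.3 with doxycycline, and 76.5, 96.2 and 91.3 in mrpl1-1. Its log2 fold change with doxycycline was -0.25 (SE 0.10; limma, adjusted p = 0.564), without overlap of the groups. Its neighbour UCR1-2, a second gene for the same protein, had a log2 fold change of 0.21 (SE 0.12) and its groups overlapped. UCR1-1, UCR1-2 and the complex V gene ATP5 follow each other on the minus strand of chromosome 5 (4305106 to 4312066), and the spans of UCR1-2 and ATP5 overlap at their ends. The UCR1 copies share sequence, since 15.8% of the 50-nt words of the UCR1-1 transcript also occurred in UCR1-2, so reads could be divided between them wrongly.

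CYC1-1 (AT3G27240), a gene of cytochrome c1, measured 79.7, 90.9 and 76.1 FPKM in wild type and 96.9, 96.7 and 94.9 with doxycycline, all above wild type, for a log2 fold change of 0.23 (SE 0.10; limma, adjusted p = 0.610). CYC1-2 overlapped between groups, at -0.10. The processing peptidase genes MPPalpha-1, MPPalpha-2 and MPPbeta had log2 fold changes from -0.15 to 0.10 with doxycycline and from -0.10 to 0.12 in mrpl1-1 (-0.09 to 0.18 without replicate 2). MPPbeta measured 187, 182 and 186 FPKM with doxycycline and 196, 188 and 190 in mrpl1-1.

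Cytochrome c, the soluble carrier between complexes III and IV, was measured through its 2 genes. CYTC-1 (AT1G22840) gave 174, 181 and 184 FPKM in wild type, 173, 174 and 147 with doxycycline, and 160, 225 and 145 in mrpl1-1. CYTC-2 (AT4G10040) gave 31.4, 26.7 and 49.5 FPKM in wild type, 35.7, 31.2 and 38.5 with doxycycline, and 36.6, 39.2 and 31.6 in mrpl1-1. The groups overlapped in both genes. The log2 fold changes of CYTC-1 were -0.13 (SE 0.11) and -0.05 (SE 0.21), and those of CYTC-2 were 0.01 (SE 0.22) and 0.04 (SE 0.24), with doxycycline and in mrpl1-1 respectively. Without mrpl1-1 replicate 2 the mutant values were -0.24 (SE 0.15) for CYTC-1 and -0.03 (SE 0.27) for CYTC-2.

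In complex IV, cytochrome c oxidase, COX5c-3 (AT5G61310) had the smallest p of the set between drug and mutant in the fit described below, where SDH1-2 had the larger fold change. It encodes a small membrane subunit and has 2 sister genes. It measured 41.0, 44.6 and 47.4 FPKM in wild type, 50.6, 49.3 and 57.5 with doxycycline, and 26.3, 41.5 and 31.8 in mrpl1-1. All doxycycline libraries lay above wild type, and the mutant libraries were lowest except that replicate 2 just exceeded wild-type replicate 1. The log2 fold change was 0.24 (SE 0.11; limma, adjusted p = 0.618) with doxycycline and -0.43 (SE 0.20; limma, adjusted p = 0.931) in mrpl1-1. Without mrpl1-1 replicate 2 the latter was -0.59 (SE 0.16; limma, adjusted p = 1).

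COX5c-1 and COX5c-2, the sister genes, overlapped between all groups. COX5c-2 measured 74.1, 88.5 and 143 FPKM in wild type and 87.7, 67.2 and 58.0 with doxycycline, where wild-type replicate 3 was again the high library. COX6a (AT4G37830), the most abundant complex IV gene of the set, measured 317, 329 and 286 FPKM in wild type, 289, 255 and 250 with doxycycline, and 296, 504 and 266 in mrpl1-1. Its groups overlapped, and its log2 fold changes were -0.23 (SE 0.11) with doxycycline and 0.14 (SE 0.27) in mrpl1-1, the latter turning to -0.14 (SE 0.16) without replicate 2. The zinc-binding COX5b and the intermembrane-space COX6b genes had log2 fold changes from -0.25 to 0.09 with doxycycline and from 0.01 to 0.38 in mrpl1-1 (-0.22 to 0.12 without replicate 2), and none was called.

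In complex V, ATPQ (AT3G52300), the d subunit of the peripheral stalk, was the gene with the smallest p in both comparisons. It measured 235, 225 and 194 FPKM in wild type, 257, 245 and 250 with doxycycline, and 240, 271 and 270 in mrpl1-1. Both other groups lay above wild type without overlap, by log2 fold changes of 0.21 (SE 0.11; limma, adjusted p = 0.658) and 0.26 (SE 0.18; limma, adjusted p = 0.931). Without wild-type replicate 3, its lowest library, these were 0.12 and 0.18, and without mrpl1-1 replicate 2 the second was 0.23. The 3 genes of the catalytic beta subunit lie in a row on chromosome 5 (2818091 to 2828806) and overlapped between groups. Their log2 fold changes were between -0.01 and 0.08 with doxycycline and between 0.04 and 0.20 in mrpl1-1 (-0.07 to 0.15 without replicate 2). These copies share between 8.17% and 12.6% of their 50-nt words, so single-copy values are uncertain. ATP15 measured 364, 269 and 318 FPKM with doxycycline and 476, 509 and 370 in mrpl1-1, and both groups overlapped wild type. The gamma subunit ATP3, the delta subunit ATP16, ATP5 (OSCP) and FAd, a subunit of the peripheral stalk, had log2 fold changes from -0.16 to -0.07 with doxycycline.

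**Figure D3:**
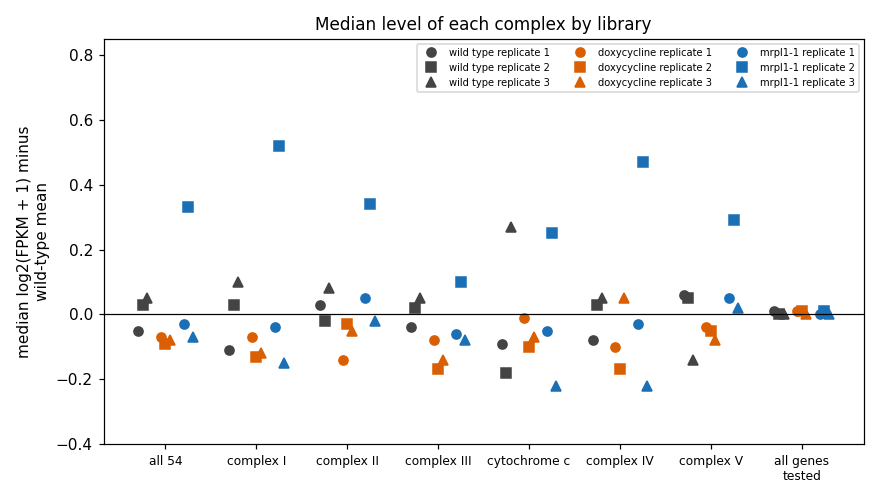
Median over the genes of each complex of log2(FPKM + 1) minus the gene's wild-type mean, per library (colour for group, symbol for replicate), with all genes tested on the right. The doxycycline medians of the 54 genes lie between -0.09 and -0.07, and mrpl1-1 replicate 2 stands above the other mutant libraries in every complex, at 0.33 over the 54 genes, 0.52 for complex I and 0.10 for complex III.

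Set directly against each other in a fit of all 9 libraries, doxycycline and mrpl1-1 differed in 70 of 19105 genes, 0.366%, and in 0 of the 54. With each library left out the number over all genes ranged from 17 without doxycycline replicate 1 to 197 without mrpl1-1 replicate 3. COX5c-3 had the smallest p, with a log2 fold change of 0.66 higher with doxycycline (SE 0.17, 95% interval 0.29 to 1.04; limma, adjusted p = 0.154). Its adjusted p ranged from 0.0312 to 0.469 over the alternatives, and it passed the test with array weights only (0.78, SE 0.14). SDH1-2 was lower with doxycycline than in the mutant by a log2 fold change of -1.09 (SE 0.28; limma, adjusted p = 0.161), again on few reads. At that level the value depends on the pseudocount, and it was -2.07 with 0.1 and -0.38 with 5 in place of 1. PSST differed by -0.47 (SE 0.19; limma, adjusted p = 0.399), and by -0.24 (SE 0.12) without mrpl1-1 replicate 2. An unadjusted p under 0.05 was found for these 3 of the 54, 5.56%, against 11.2% of all genes. It was found for 10 without mrpl1-1 replicate 3 and for 6 without wild-type replicate 3. In those fits 18.1% and 13.3% of all genes had such a p. The median of the 54 was -0.16, and -0.03 without mrpl1-1 replicate 2. The ranges were separate for 10 of the 54, 18.5%, against 19% of all genes.

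In 16 families, holding 36 of the 54 genes, the same subunit is encoded by 2 or 3 genes, and the balance within a family does not depend on a library's overall level. A trend with transcript length, described below, can still enter that balance where copies differ in length. Copies ranged from 646 to 1658 nt in COX5c and from 617 to 1329 nt in COX6b. The part of length in the shares was not tested. QCR7-1 supplied between 98.8% and 99.8% of its family's summed FPKM in every library, SDH1-1 between 96.4% and 99.8%, CYTC-1 between 78.8% and 87.1% and MPPalpha-1 between 71.7% and 81.5%. These 4 families had a dominant copy in all 9 libraries, whereas SDH2, UCR1, CYC1 and COX5b were divided more evenly. In complex I, TYKY-1 supplied between 55.9% and 64.7%, GAMMA-CA2 between 46.0% and 58.8% and B16.6-2 between 57.4% and 69.5% of their families.

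A share did not overlap wild type in 6 of the 16 families with doxycycline and in 3 of the 16 in mrpl1-1. No such count over other gene families was made, and families of 3 genes offer more than 1 share each. Whether these counts exceed a background is therefore not known. Of the shares, the means of UCR1-1 and its partner differed most between doxycycline and wild type. These copies share 15.8% and 13.3% of their 50-nt words, so reads could be divided between them wrongly. The share of UCR1-1 was 46.4%, 47.3% and 49.6% in wild type, 37.4%, 42.9% and 39.0% with doxycycline, and 43.0%, 42.4% and 45.6% in mrpl1-1. Neither treated group overlapped wild type, and the means were 47.7% ± 1.65, 39.8% ± 2.81 and 43.7% ± 1.73 (SD, n = 3 each). CYC1-1 went from 44.7%, 45.6% and 35.4% to 47.4%, 48.9% and 45.9% with doxycycline, the lowest doxycycline share lying just above the highest wild-type share. The share of GAMMA-CAL1 was 63.2%, 60.5% and 65.2% in wild type and 53.9%, 59.2% and 60% in mrpl1-1, and that of COX5c-1 was 62.5%, 61.7% and 62.9% in wild type and 74.3%, 67.9% and 63.6% in mrpl1-1. Both differed without overlap. An exact two-sided permutation test of a share can reach no p below 0.1 with 3 libraries against 3, so the shares are given as a description.

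**Figure D4:**
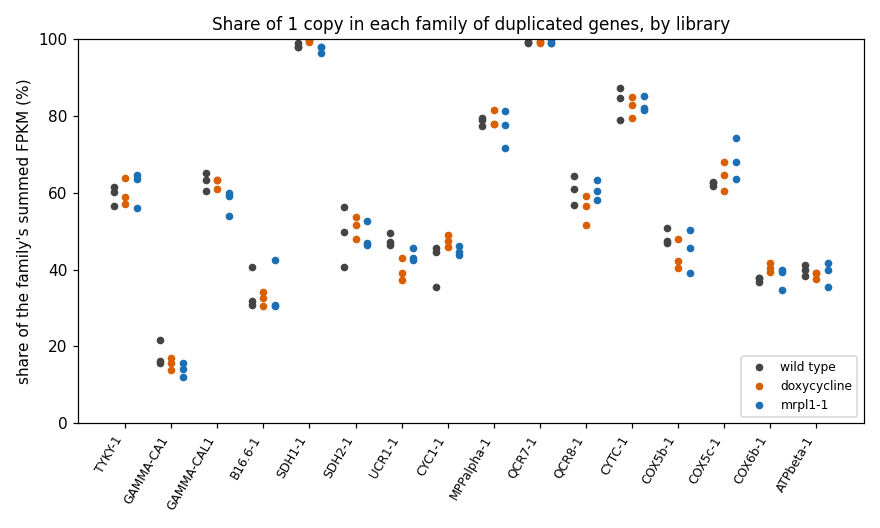
Share (%) of the summed FPKM of each of the 16 families supplied by its first copy, 1 point per library. QCR7-1 and SDH1-1 lie near 100% throughout. UCR1-1 is lower in the doxycycline libraries (37.4% to 42.9%) than in wild type (46.4% to 49.6%), but reads of the UCR1 copies could be divided wrongly.

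Fold changes with doxycycline tended to rise with transcript length in these genes and, more weakly, over all genes tested. Spearman's rho between the log2 fold change and the length of the longest annotated transcript was 0.58 over 53 genes of the set and 0.21 over 18891 genes tested, a description across genes of the same libraries, which are not independent replicates. The median log2 fold change was -0.18 for the 16 genes of the set under 1000 nt, -0.09 for the 26 between these and 2000 nt and 0.08 for the 11 of 2000 nt or more. Over all genes tested the same classes had medians of -0.12, -0.02 and 0.05. The small subunits QCR8-1 (815 nt), COX6a (597 nt) and ATP15 (795 nt) are in the first class, and CI51, CI75 and SDH1-1 in the last. With a length trend taken out, the median of the 53 genes was -0.02 and 2 genes, PSST and ATPQ, had an unadjusted p under 0.05 (7.58% of all genes). The fold changes of the others with an unadjusted p under 0.05 before that step were then 0.24 for SDH1-1, -0.22 for UCR1-1, -0.29 for QCR8-1 and -0.17 for B13, against 0.28, -0.25, -0.41 and -0.28 before. The median of complex IV, 5 of whose 9 genes are under 1000 nt, was then 0.03. In mrpl1-1 the rho was 0.179 over the 54 genes and -0.163 over all 18814 genes.

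**Figure D5:**
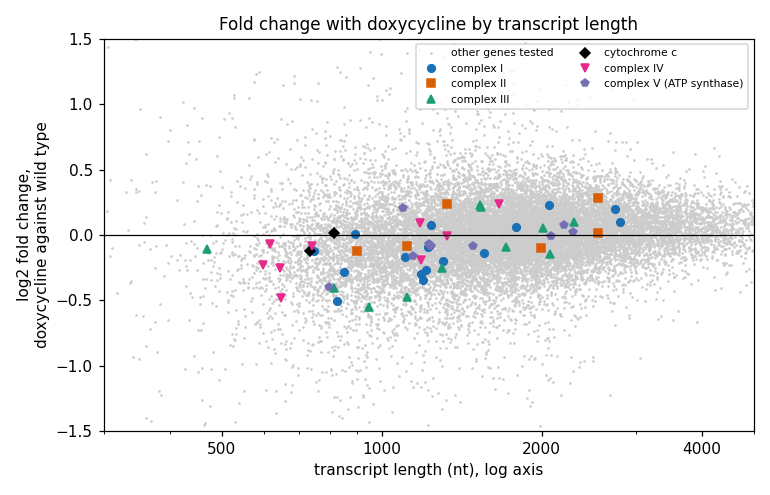
Log2 fold change with doxycycline against transcript length (log axis, nt), grey for other genes tested and coloured symbols for the 53 genes of the set by complex. Genes of the set under 1000 nt have a median of -0.18 and those of 2000 nt or more a median of 0.08; the grey cloud leans the same way (-0.12 and 0.05).

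The wider machinery was described through lists chosen with earlier results of these data known. Of 41 further nuclear subunits of complexes I to V, 39 were tested with doxycycline and 0 were called, with a median log2 fold change of -0.25 and 33 of 39 below 0. Of these, 7 had an unadjusted p under 0.05, all lower, 17.9% against 4.65% of all genes. The transcripts of that list are short, with a median of 904 nt. With a length trend taken out the median was -0.12 and 4 had an unadjusted p under 0.05. All 4 were lower, and 7.58% of all genes had such a p in either direction. SDH7, a plant-specific complex II subunit, had the smallest p, at 45.0, 42.2 and 40.5 FPKM in wild type and 31.9, 34.1 and 30.6 with doxycycline (log2 fold change -0.39; limma, adjusted p = 0.348). Its groups did not overlap. In mrpl1-1 the median of that list was 0.03, or -0.10 without replicate 2, and again 0 were called.

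Of 17 assembly factors, proteins that build the complexes without being part of them, 16 were tested and 0 were called, and their median was 0.11 with doxycycline and 0.14 in mrpl1-1 (0.19 without replicate 2). With doxycycline 12 of the 16 lay above 0, and 3 had an unadjusted p under 0.05, all higher, 18.8% against 3.84% of all genes. Without wild-type replicate 3 the median was 0.00, with 8 of 16 above 0. COX15, which helps to make the heme of complex IV, measured 9.79, 5.87 and 7.26 FPKM in wild type, 14.9, 15.9 and 15.6 with doxycycline, and 10.8, 11 and 8.72 in mrpl1-1. All doxycycline libraries were higher than all others, for a log2 fold change of 0.96 that missed the threshold (limma, adjusted p = 0.146). RNA was enriched for polyA tails, and mitochondrion-encoded subunits were poorly covered. Of 19 such loci 6 passed the filter with doxycycline and 7 in mrpl1-1, 0 were called, and the medians were 0.13 and 0.70. The second median rested on mrpl1-1 replicate 2. There 7 of these loci summed to 72.1 FPKM, against 22.4 and 31.3 FPKM in replicates 1 and 3. Without that library the median was 0.01, with 4 of 7 above 0 and 1 with an unadjusted p under 0.05 (3.47% of all genes). With all libraries 7 of 7 lay above 0, and 2 had an unadjusted p under 0.05 (28.6%, against 4.46% of all genes). ATMG00070, at 5.81, 5.45 and 6.53 FPKM in mrpl1-1, lay above its wild-type values of 3.36, 4.4 and 2.22 throughout.

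Whole seedlings mix organs, so fewer cells of a kind and less RNA per cell cannot be told apart. All 5 root markers tested had log2 fold changes below 0 with doxycycline, from -1.67 to -0.17, with a median of -0.72. Against wild type 0 were called, but 3 of the 5 had an unadjusted p under 0.05, 60% against 4.65% of all genes for lower values. Separate ranges were found for 3 of the 5, all lower (7.48% of all genes). Between doxycycline and mrpl1-1, 2 of the 5 were called, both lower with doxycycline. All 5 leaf markers were also below 0, with a median of -0.06. In mrpl1-1 the medians were 0.16 for root and 0.41 for leaf markers, or -0.02 and 0.18 without replicate 2. The median leaf marker stood 0.57 and 0.86 (log2) above its wild-type mean in mrpl1-1 replicates 1 and 2 and 0.22 below it in replicate 3. The 3 seed storage markers were at 0 or nearly so in every library, and the flower markers AP3 and AG did not exceed 1.29 FPKM. The part of these shifts in the values of the 54 genes was not tested.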

How the data were processed

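The authors deposited FPKM values per gene in 2 tables, doxycycline with control and mrpl1-1 with wild type. The wild-type columns of both hold the same 3 libraries, scaled by a factor of 0.94057 to 0.94147, and both comparisons with wild type were fitted within their tables. The mrpl1-1 group was divided by 0.94058 wherever all 9 libraries are shown together. Per the labels' protocols, polyA RNA was selected and the libraries were read on an Ion Torrent instrument. The build TAIR10, Cufflinks 2.2.1 and FastQC 0.10.1 appear in the submitters' processing notes. The sources used here do not give the aligner or the use of strand, so overlapping genes and near-identical copies are uncertain.

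Log2(FPKM + 1) of genes averaging 1 FPKM or more was the input of limma 3.58.1 (R 4.3.3), used with its variance trend and with Benjamini-Hochberg adjustment over all genes at 0.05. Fold changes on that scale understate the change of low genes. FPKM is scaled per library and is not a count, so no count test was run. Depth was estimated from low values, of which 90% to 93.7% of the ratios between libraries were ratios of small whole numbers within a tolerance of 0.005. The fit was tested on simulated data with independent noise per gene and added changes of 2-fold or more. That test does not cover smaller changes, a library that stands apart or a trend with length.

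The members, the lists and the rule for named genes were chosen with earlier results of these data known. The rule named every called gene, per complex the gene with the smallest p in each comparison with wild type and the highest wild-type mean, and every family, and others were named after their values were seen. Names absent from the annotation came from the list. Coordinates, lengths and promoters are from RefSeq's TAIR10.1, which matched 32810 loci and not 747. Each alternative changed 1 choice: the pseudocount (0.1 or 5), the filter (none or 5 FPKM), the scaling (median ratios or quantiles), weights per array, a block for the replicate number, removal of a length trend, or 1 library left out.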

Additional observations from a re-analysis of the deposited data

How the results depend on the processing

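No gene of the set was called in either comparison with wild type under any alternative run. Median-ratio rescaling was no separate check, because the median deviation of all genes tested was already 0.00 to 0.01 (log2) in every library. Between doxycycline and mrpl1-1, array weights called 1 gene, COX5c-3 (log2 fold change 0.78), so the count among named genes was 1 as well. The number of genes with an unadjusted p under 0.05 with doxycycline, 5, became 8 without a filter, 8 with array weights and 2 with the length trend taken out. Over all genes the shares were 7.9%, 11.7% and 7.58%, against 8.49%. In mrpl1-1 the number was 0 without a filter and 2 with quantile normalization, against 1 (4.44%, 4.6% and 4.46% of all genes). Between drug and mutant it was 5 with quantile normalization and 5 with array weights, against 3 (11.5%, 13.2% and 11.2% of all genes).

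Quantile normalization moved the doxycycline medians to -0.01 for all genes of the set, 0.03 for complex II, -0.01 for complex III and 0.03 for complex V, and the mrpl1-1 medians to -0.13 for complex III and -0.03 for complex V. Array weights gave -0.06 for complex III and -0.19 for complex IV with doxycycline. Taking out the length trend gave -0.02 for all genes of the set, 0.03 for complex IV and 0.01 for CYTC-1. CYTC-1 also changed sign in mrpl1-1, to 0.01 and 0.08, without mrpl1-1 replicate 1 or 3. The causes were not tested.

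With each library left out in turn, counts with an unadjusted p under 0.05 ranged from 1 to 10 with doxycycline, 0 to 2 in mrpl1-1 and 2 to 10 between them. The shares over all genes ranged from 5.43% to 11.7%, 3.47% to 8.44% and 7.41% to 18.1% in the same order. The medians of the set ranged from -0.13 to -0.07, -0.05 to 0.16 and -0.24 to -0.03. With doxycycline the medians ranged from -0.20 to -0.08 for complex I, -0.09 to 0.00 for complex II, -0.20 to -0.05 for complex III, -0.14 to 0.08 for cytochrome c, -0.17 to -0.05 for complex IV and -0.08 to 0.03 for complex V. In mrpl1-1 they ranged from -0.08 to 0.23, -0.05 to 0.24, -0.09 to 0.01, -0.13 to 0.13, -0.14 to 0.24 and 0.01 to 0.13 in the same order.

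Same-numbered libraries showed no shared deviation (correlations of -0.076 to 0.082). With 3 libraries per group this cannot decide whether the replicate numbers pair them. With the replicate number as a block, 0 genes of the set were called in any comparison, and 5, 1 and 3 had an unadjusted p under 0.05 (8.02%, 4.96% and 10.2% of all genes). Depth limits the scarce SDH1-2 and QCR7-2.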
